A study of Mus musculus with 8 samples.

Results

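Actin filaments and vimentin filaments carry the shape and the contractile force of fibroblasts, and the genes for their main proteins are known as some of the most strongly transcribed in these cells. The genes examined here were 10 chosen by name, namely the actins Actb, Actg1 and Acta2, the tropomyosins Tpm1, Tpm2, Tpm3 and Tpm4, the actin-binding protein gene Tagln, the myosin light chain gene Myl9 and the intermediate filament gene Vim. They were 10 of 21938 protein-coding genes. For each, every ASH2L site within 1 kb and 3 kb of an annotated transcription start site (TSS) and every site centred in the gene body was collected. The question was whether these genes carry an ASH2L site and where it lies. Of the 10 genes, 5 had a site (Actb, Actg1, Acta2, Vim and Tpm1, with 12 sites in all), and 5 had none (Tagln, Tpm2, Tpm3, Tpm4 and Myl9).

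ASH2L was profiled by chromatin immunoprecipitation and sequencing (ChIP-seq) in iMEF, immortalised mouse embryo fibroblasts. In these cells exon 4 of both endogenous Ash2l alleles had been deleted, and a lentiviral construct supplied human ASH2L with an N-terminal FKBP tag and an HA epitope, so that all groups lacked the mouse protein and carried the fusion. The 8 libraries formed 4 groups of 2 replicates, which were ASH2L precipitates and inputs from cells without dTAG and from cells given dTAG for 1 h, an agent that directs degradation of FKBP-tagged proteins. The cells were clones selected after deletion of the endogenous gene, of which the study mainly used the one called NG3, and the labels do not say which clone gave these libraries. The data used here were 1 list of sites compiled over all samples, with a chromosome, a start and an end for each site (mm10) and with no signal. No value per library was available for the 12 sites, so that no replicate error, no depth and no difference between treated and untreated cells could be given from it, and the identity of the cells could not be checked against marker genes. A separate list of sites changed after dTAG is named by the study and was not analysed here. RNA levels were not analysed either, and the abundance of these transcripts is background knowledge, not a measurement.

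ASH2L is a core subunit of the COMPASS/KMT2 complexes, which methylate lysine 4 of histone H3 at promoters and enhancers, and these complexes are known to favour unmethylated CpG islands. Actb and Actg1 encode the cytoplasmic actins of all cells, while Acta2 encodes the smooth muscle actin that fibroblasts make when they become contractile. Tropomyosins are coiled coils that lie along the actin filament, Tagln encodes transgelin, an actin-binding protein of smooth muscle, and Myl9 encodes a regulatory light chain of myosin II. Many of these genes are known targets of serum response factor (SRF), which binds a sequence called the CArG box, made of CC and GG with A and T bases between them.

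A site within 1 kb of a TSS was found for 5 of the 10 genes, beside 14.0% of all protein-coding genes. The same 5 genes had a site within 3 kb of a TSS, beside 15.4% of all protein-coding genes, and a site centred in the gene body, beside 15.8%. Because the 10 genes were picked by name with results of these data known, no test was made of these shares. Counted by sites, 7 of the 12 had their centre within 1 kb of a TSS, 11 within 3 kb and 12 inside the gene body. The sites were collected by these same windows, and the shares above are of genes, so that these counts of sites only describe them. Nearest to the limit of 1 kb were the first site of Tpm1 inside it, 682 bp from a TSS, and the second site of Actb outside it, at 1034.5 bp. The widths of the 12 sites ranged from 200 to 1448 bp with a median of 442.5 bp, and 10 of the 12 exceeded the median of 268 bp over all 6444 sites. A width of at least 500 bp was reached by 5 of the 12 sites and by 11.3% of all sites. The centre of the site lay in an intron in 8 cases, in coding sequence in 2 and in an untranslated region (UTR) in 2. The same split over all sites is not given here, so that these 3 counts are a description only. In sum the sites covered 6663 bp, of which 4625 bp were intron, 1351 bp coding sequence and 687 bp UTR of the main transcript, which is the longest one tagged as principal by APPRIS and is used for exon numbers.

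**Figure D1:**
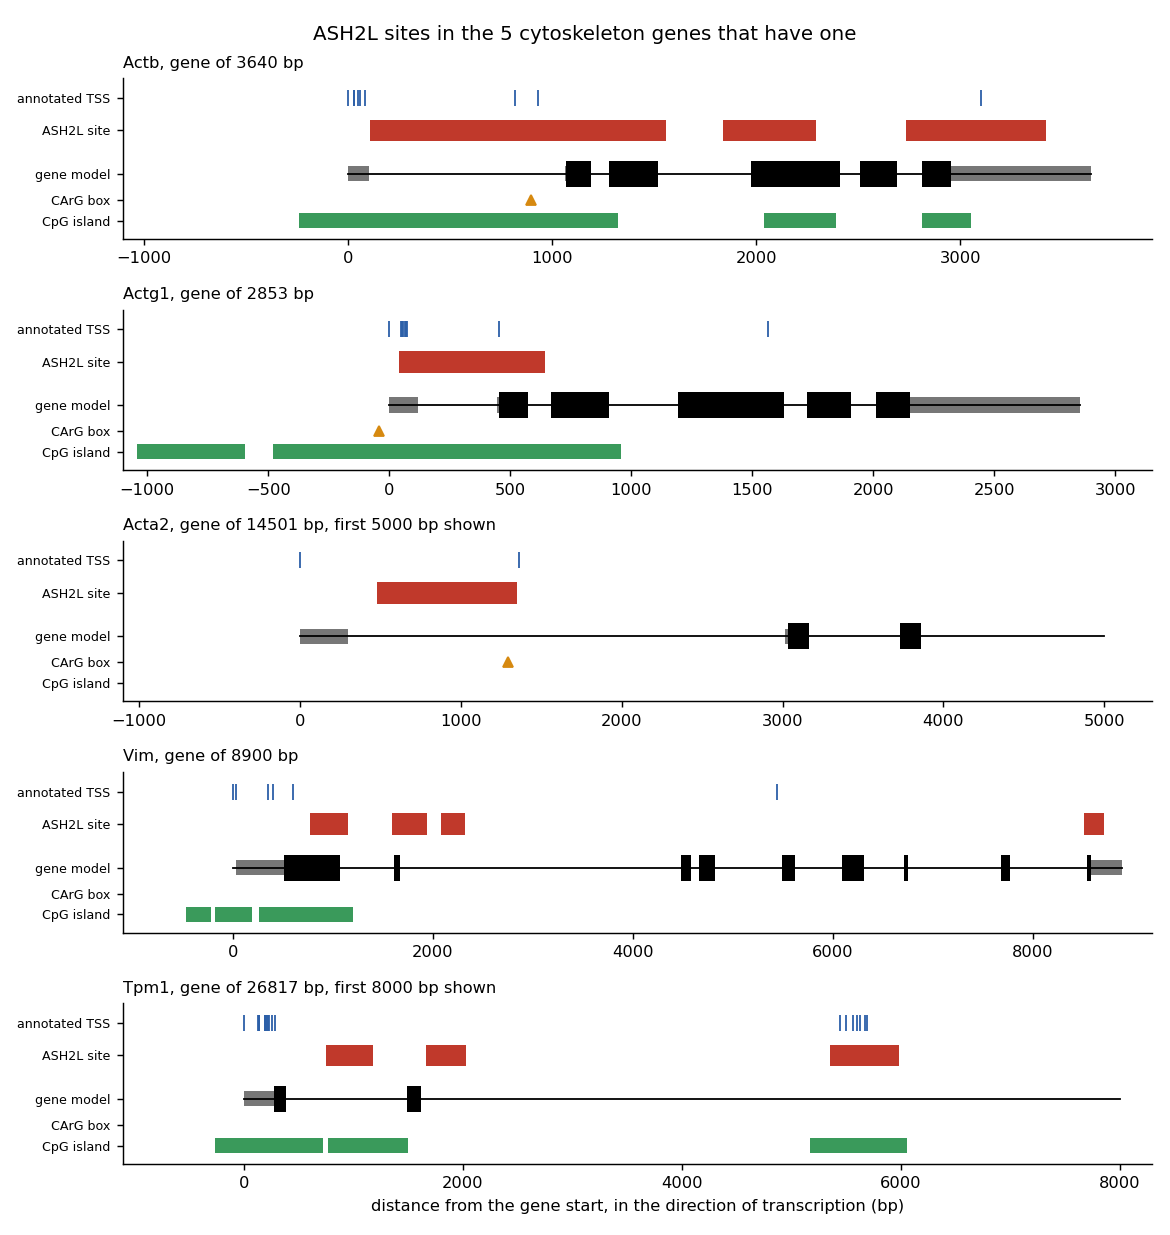
Each panel maps 1 gene in the direction of transcription, with the distance from the gene start in bp on the x axis. Red bars are ASH2L sites, blue ticks annotated TSSs, black and grey boxes coding and untranslated exons of the main transcript, triangles CArG boxes inside a site or in the searched promoter window, and green bars CpG islands. The red bars fill most of Actb, lie downstream of the gene start in all 5 genes, and meet no green bar in Acta2.

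Actb (ENSMUSG00000029580.14, chr5:142903115-142906754, minus strand) had 3 sites, which together covered 2592 bp or 71.2% of its 3640 bp. Sites covered over 50% of the gene body in 0.123% of protein-coding genes, and Actb ranked 14 among the 3718 genes with any covered base. The median gene with any covered base had 0.808% of its body covered and was 40.4 kb long, so that the short length of Actb entered its rank. The 27 genes past 50% were of several kinds, among them the transcription factor genes Foxc2 and Hoxa9, the cell cycle inhibitor gene Cdkn2c, the GTPase gene Arf6 and short predicted genes, names picked after their values were seen. Among these 27, Actb was the only one of the 10 cytoskeleton genes. The comparison with coverage of the whole gene was chosen after the values were seen.

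The first Actb site (chr5:142905197-142906644) was the widest of the 12, with 1448 bp, and was wider than 98.7% of all sites. It began 110 bp downstream of the gene start, was centred 833.5 bp downstream in intron 1 and reached over exons 2 and 3, which hold the start of the coding sequence. A GC content of 64.2% and 118 CpG dinucleotides were counted in it, and 1214 bp of it (83.8%) lay in the CpG island of 1565 bp that spans the gene start. Its centre was also 16.5 bp from the annotated start of the short transcript Actb-202 within intron 1. A CArG box, CCTTTTATGG, lay in the site at chr5:142905848-142905857, 897 bp downstream of the gene start. The second site (chr5:142904460-142904917, 458 bp) was centred in the coding part of exon 4. The third site (chr5:142903335-142904020, 686 bp) was centred in the UTR of exon 6, the last exon, 562.5 bp before the gene end, and had a GC content of 43.3%. Its centre was 23.5 bp upstream of the start of Actb-209, a noncoding transcript annotated within the last exon.

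Actg1 (ENSMUSG00000062825.15, chr11:120345690-120348542, minus strand) differed from Actb in holding 1 site. The site of 606 bp (chr11:120347899-120348504) was wider than 92.7% of all sites, began 38 bp downstream of the gene start and was centred 340.5 bp downstream in intron 1. It covered 21.2% of this gene of 2853 bp. The whole site lay in a CpG island of 1435 bp, with a GC content of 70.0%, the observed CpG count being 0.930 of that expected from base composition. Its downstream part, from the ATG of the coding sequence in exon 2 into intron 2 (chr11:120347899-120348091, mm10, minus strand), is shown as the longest stretch of the site outside UTR exons. It makes up 193 of the 606 bp and holds 17 of the 69 CpG dinucleotides of the site. CG is in capitals.
Actg1 site: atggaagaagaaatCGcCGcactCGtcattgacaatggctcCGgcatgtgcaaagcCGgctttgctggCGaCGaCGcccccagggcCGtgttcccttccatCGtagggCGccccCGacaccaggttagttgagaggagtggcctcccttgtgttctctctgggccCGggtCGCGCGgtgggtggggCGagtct

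Acta2 (ENSMUSG00000035783.9, chr19:34241090-34255590, minus strand) carried a site of 870 bp (chr19:34254245-34255114), wider than 96.9% of all sites and wider than the site in Actg1. The site was entirely in intron 1, between 476 and 1345 bp downstream of the gene start, and covered 6.0% of the gene. It met no CpG island, and the sequence had a GC content of 46.3% and 14 CpG dinucleotides. The 2 kb around the start of Acta2 also lacked an island, with a GC content of 44.8% and 29 CpG dinucleotides. A start of the transcript Acta2-202 is annotated 449.5 bp downstream of the centre of the site. The 200 bp at the downstream end of the site (chr19:34254245-34254444, minus strand) are shown because a CArG box lay there, 1293 bp downstream of the gene start. CG and the CArG box are in capitals.
Acta2 site: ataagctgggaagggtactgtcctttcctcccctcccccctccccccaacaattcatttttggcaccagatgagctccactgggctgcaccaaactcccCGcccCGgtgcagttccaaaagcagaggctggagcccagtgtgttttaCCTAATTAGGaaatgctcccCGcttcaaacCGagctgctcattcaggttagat

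Vim (ENSMUSG00000026728.9, chr2:13573927-13582826, plus strand) encodes the intermediate filament protein of mesenchymal cells and had 4 sites, which covered 13.2% of its 8900 bp. Its first site (chr2:13574694-13575075, 382 bp) was centred 957.5 bp downstream of the gene start in the coding sequence of exon 1 and lay wholly in a CpG island of 945 bp. The next pair, of 351 bp (chr2:13575515-13575865) and 242 bp (chr2:13576010-13576251), was centred 1763 and 2203.5 bp downstream, both in intron 2. The fourth (chr2:13582441-13582640) had the smallest width of the list, 200 bp, and lay mostly in the last exon, with 32 bp in the intron before it. It was centred in the UTR 285.5 bp before the gene end, with a GC content of 38.5% and no CpG island. It was the 1 site of the 12 more than 3 kb from a TSS, at 3171.5 bp. The middle of the first site (chr2:13574784-13574983, plus strand) is shown because it is coding sequence that holds 17 of the 26 CpG dinucleotides of the site, with CG in capitals.
Vim site 1: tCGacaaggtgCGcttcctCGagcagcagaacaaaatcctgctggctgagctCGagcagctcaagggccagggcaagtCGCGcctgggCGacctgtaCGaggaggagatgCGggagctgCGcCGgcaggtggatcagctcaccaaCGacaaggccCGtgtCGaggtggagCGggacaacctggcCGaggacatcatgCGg

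Tpm1 (ENSMUSG00000032366.15, chr9:67022590-67049406, minus strand) was the only tropomyosin gene with a site and had 3, which covered 5.30% of its 26817 bp. It has 21 annotated TSSs, most of them in a group at the gene start and in an internal group about which the shorter tropomyosin forms begin. The first site (chr9:67048223-67048649, 427 bp) was centred 970 bp downstream of the gene start in intron 1, and the second (chr9:67047379-67047739, 361 bp) 1847 bp downstream in intron 2. The third (chr9:67043424-67044055, 632 bp) was the widest, wider than 93.7% of all sites, and covered 7 internal TSSs, from chr9:67043709 to chr9:67043962. Its centre was 6.5 bp upstream of the start of Tpm1-204 and 5666.5 bp downstream of the gene start, within intron 2 of the full-length transcript. GC content was 70.1% in the third site, which lay wholly in an island, 56.9% in the first, of which 96.3% was island, and 57.1% in the second, which met none. A stretch of the first site (chr9:67048336-67048535) and one of the third, from the ATG of an internal first exon into the intron that follows (chr9:67043510-67043709), both on the minus strand, are shown because they are parts of an intronic site that holds no TSS and of a site at the internal starts. They held 9 and 19 CpG dinucleotides in 200 bp each, and CG is in capitals.
Tpm1 site 1: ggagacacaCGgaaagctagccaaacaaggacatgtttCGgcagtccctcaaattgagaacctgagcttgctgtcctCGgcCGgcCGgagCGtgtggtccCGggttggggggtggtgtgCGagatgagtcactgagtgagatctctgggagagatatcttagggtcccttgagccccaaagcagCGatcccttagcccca
Tpm1 site 3: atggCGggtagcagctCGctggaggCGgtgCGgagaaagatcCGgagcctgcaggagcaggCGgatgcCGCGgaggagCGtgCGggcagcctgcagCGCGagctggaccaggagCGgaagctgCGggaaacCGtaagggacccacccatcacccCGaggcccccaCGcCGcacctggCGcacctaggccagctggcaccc

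In all 5 genes the site nearest the gene start lay farther downstream than in most genes with a site. Among 2696 protein-coding genes with a site centred within 1 kb of the gene start, the nearest centre lay at a median of 161 bp downstream, and the quartiles were 8.5 and 343.125 bp. The offsets were 340.5 bp in Actg1, 833.5 bp in Actb, 910.5 bp in Acta2, 957.5 bp in Vim and 970 bp in Tpm1. Actg1 was within the quartiles, with a smaller offset in 74.6% of the 2696 genes, and the other 4 were beyond 800 bp, where 4.12% of the 2696 genes lay. For Actb, Acta2, Vim and Tpm1, between 96.6 and 99.5% of the 2696 genes had a smaller offset. Such offsets were not particular to these genes. Of 82 further cytoskeleton genes, listed below, 16 had a site centred within 1 kb of the gene start. Among these 16, Tubb5 (948.5 bp), Coro1c (878.5 bp), Actr3 (868.5 bp), Myl6 (860 bp) and Rdx (811.5 bp) were also beyond 800 bp. The others lay between -295 bp (Lmnb1) and 716 bp (Rock1). In Actb, Actg1, Acta2, Vim and Tpm1 the whole site was downstream of the gene start, which held for 48.8% of the 2696 genes. The distance depends on which start is used, because all 5 genes have further annotated starts inside the gene. The limit of 800 bp was chosen after the values were seen, and the window of 1 kb cuts the offsets off just above those of Vim and Tpm1.

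**Figure D2:**
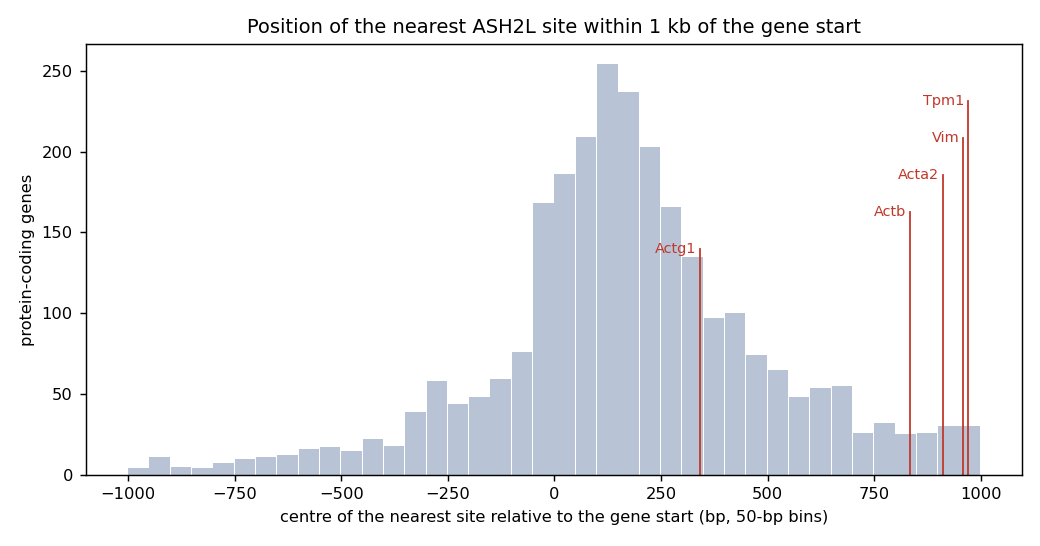
The histogram counts 2696 protein-coding genes by the distance from the gene start to the centre of the nearest ASH2L site, in bins of 50 bp, with positive values downstream. Red lines mark the 5 cytoskeleton genes, their heights carry no value, and the lines of Actb, Acta2, Vim and Tpm1 stand in the right tail.

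Several of the genes held more than 1 site. At least 3 sites were centred in the gene body of Actb, Vim and Tpm1, 3 of the 10 genes, beside 1.11% of protein-coding genes. Vim, with 4 sites, was 1 of 102 genes with at least that number. For genes of at least 3 kb, a site in the body within 1 kb of the gene end was found in Actb and Vim, beside 0.297% of such genes, 58 in all. The 58 genes were of many kinds, among them the transcription factor genes Hoxa9, Hoxd13 and Id2, the ferritin gene Fth1 and the lactate dehydrogenase gene Ldha. Umod, Kap and Pck1, better known from kidney and liver than from fibroblasts, were also among them. These names were picked after their values were seen, with no count of kinds. Whether the listed sites at gene ends, site 3 of Actb and site 4 of Vim included, come from ASH2L binding or from reads of another origin was not tested. Without these sites, 1906 bp of Actb (52.4%) and 975 bp of Vim were covered, and 2 of the 10 genes (Vim and Tpm1) rather than 3 had at least 3 sites, a setting added after the values were seen. Both counts of genes were likewise chosen after the positions were seen.

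**Figure D3:**
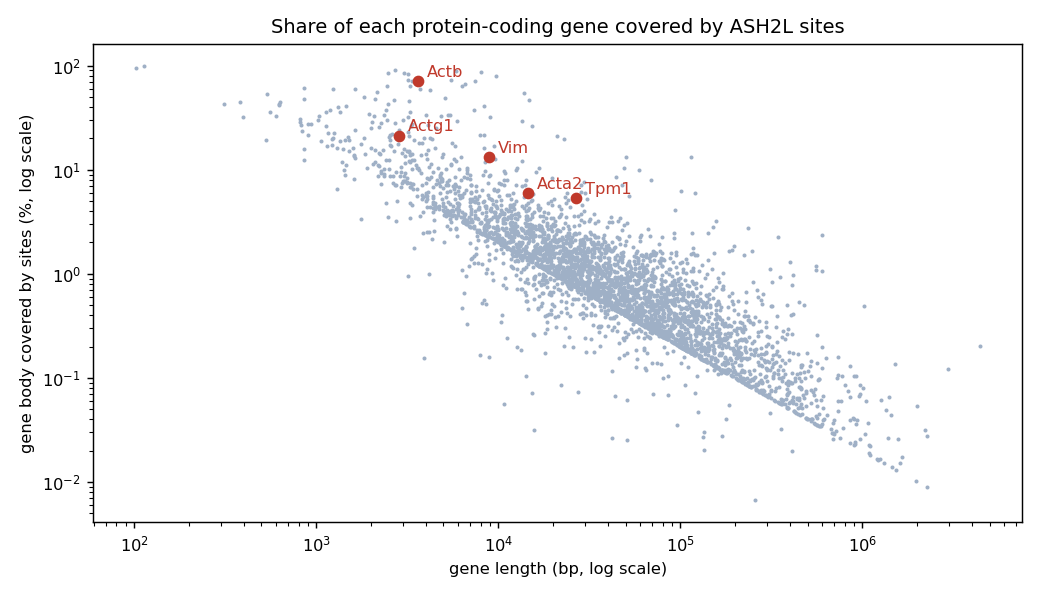
Each point is 1 of 3718 protein-coding genes with at least 1 base under an ASH2L site, placed by gene length (x axis, bp, log scale) and by the percent of the gene body covered (y axis, log scale). The 5 cytoskeleton genes, in red, run from 71.2% for Actb to 5.30% for Tpm1 and lie in the upper part of the points of their length.

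Exact copies elsewhere in the genome limit how far reads can be assigned to a site. In the Actg1 site, 57 of 532 stretches of 75 bases (10.7%), the length of the reads, had an exact copy elsewhere in the genome. In Actb, 18 of 612 stretches of the third site (2.94%) and 3 of 1374 of the first (0.218%) had a copy. The other 9 sites held none. Where the copies lie was not looked at, and near-identical copies with mismatches were not counted.

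A CpG island was built by joining overlapping windows of 200 bp in which GC exceeded 50% and CpG dinucleotides exceeded 0.6 of their expected number, each window passing on its own. One lay within 1 kb of a TSS in 9 of the 10 genes, beside 73.4% of protein-coding genes. Of the 9 genes with an island, Actb, Actg1, Vim and Tpm1 had a promoter site and 5 did not, beside a share with a site of 19.0% of the 16099 genes with an island. Acta2 was the gene without an island. Only 19 of the 3078 genes with a promoter site (0.617%) had none, and a site was found at 0.325% of the 5839 genes that lack one. By sites, 8 of the 12 overlapped an island and 4 did not, namely the site of Acta2, sites 3 and 4 of Vim and site 2 of Tpm1. The share of all sites that overlap an island is not given here, so that 8 of 12 cannot be called high or low.

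Among the 5 genes without a site, islands were not all small. Tpm4 (ENSMUSG00000031799.9, chr8:72134975-72153142) had an island of 1444 bp over its start, and its nearest site on the chromosome was 211874.5 bp upstream, at Zfp617. Tpm3 (ENSMUSG00000027940.18, chr3:90072649-90100902) had an island of 1386 bp at its internal promoter, from 6557 to 7942 bp downstream of the gene start, and its nearest site (490 bp) was 20439.5 bp upstream, at Ubap2l. The internal promoters of Tpm1 and Tpm3 thus both lay in an island, and the site was listed for Tpm1. Tpm2 (ENSMUSG00000028464.16, chr4:43514711-43523765) had 5 islands around its start, the widest of 671 bp, and the nearest site was 26693.5 bp downstream of a Tpm2 TSS, at Ccdc107.

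Tagln and Myl9, best known from contractile cells, had 1 island each, of 259 and 345 bp, which were narrower than the widest island of each of the other 7 genes with one. For Tagln (ENSMUSG00000032085.5, chr9:45929619-45936058) the nearest site was 58703.5 bp upstream, at an offset of -9367.5 bp from a TSS of Pafah1b2. For Myl9 (ENSMUSG00000067818.6, chr2:156775420-156781658) it was 227863 bp upstream, at Aar2. Under a stricter definition (joined windows of 500 bp, GC content over 55%, ratio over 0.65), 7 genes kept one, and Tagln and Myl9 joined Acta2 without. Without signal values, a gene not in the list can only be said to have no listed site, and weak binding there was not measured.

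Because several of these genes are targets of SRF, the sites and the promoters were searched for the CArG box and for 4 further motifs on both strands, namely TATAAA (the TATA box), CCCCGCCCC (a word bound by SP and KLF factors), CATTCC (bound by TEAD factors) and TGAGTCA or TGACTCA (bound by AP-1). A CArG box was in 2 of the 12 sites, the first of Actb and that of Acta2, both in intron 1, beside 1.09% of 6428 sites and 3.30% of 727 sites of at least 500 bp. Both were in sites wider than 800 bp, and longer sites have more room for a match. The AP-1 word was in the first site of Tpm1, printed above with it, 995 bp downstream of the gene start, and in the third site of Actb, beside 8.29% of all sites and 10.2% of those of at least 500 bp. CCCCGCCCC was in the first site of Actb, that of Acta2 and the second of Tpm1, beside 5.86% of all sites and 18.0% of those of at least 500 bp. TATAAA was in the second site of Tpm1 (11.3% of all sites and 16.1% of the wider ones), and CATTCC in sites 1 and 3 of Actb, that of Acta2 and site 3 of Vim (17.6 and 28.1%).

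Promoters were read from 250 bp before to 50 bp after the gene start for genes with an entry in the RefSeq promoter table of GRCm38.p6, which 8 of the 10 genes had, and Actb and Tagln were not searched. Only the gene start was read. Internal promoters, as in Tpm1 and Tpm3, and the coding start of Tpm4, which lies downstream of its window, were not covered. A CArG box was in 1.52% of 16539 such promoters and in those of Actg1 and Myl9, with its first base at -43 and -117 bp from the gene start. The 150 bp before both starts (chr11:120348543-120348692 on the minus strand and chr2:156775270-156775419 on the plus strand) are shown because Actg1 had a site and Myl9 did not, while both have the box. The CArG box is in capitals.
Actg1 promoter: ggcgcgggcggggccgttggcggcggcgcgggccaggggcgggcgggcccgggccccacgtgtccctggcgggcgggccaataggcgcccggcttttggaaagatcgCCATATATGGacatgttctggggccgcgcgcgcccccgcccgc
Myl9 promoter: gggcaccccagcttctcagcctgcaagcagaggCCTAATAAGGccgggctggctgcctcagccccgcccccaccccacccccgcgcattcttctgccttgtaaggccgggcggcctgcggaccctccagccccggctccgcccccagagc
The Actg1 stretch held 23 CpG dinucleotides and the Myl9 stretch 9. The ASH2L site of Actg1 began 38 bp downstream of the gene start and so did not include its box. Among the other motifs, CCCCGCCCC was found in the promoter of Myl9 (14.7% of promoters), CATTCC in that of Acta2 (13.6%), the AP-1 word in that of Tpm4 (4.64%) and TATAAA in none of the 8 (12.4%). A match describes the letters in these windows and not a bound factor. The CArG box was matched only with A and T alone between CC and GG. Variants with a G or C there were not counted, in Acta2 or elsewhere.

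To see how far sites were spread over the cytoskeleton, 82 further genes were listed by role. A site within 1 kb of a TSS was found at 19 of them (23.2%), beside 14.0% of all protein-coding genes, and 79 of the 82 had a CpG island. Of the 11 myosin II genes and regulators, 6 had a site, at Rock1 (a kinase that promotes myosin activity, site of 513 bp), Myl12a (a regulatory light chain, 474 bp), Myh9 (a nonmuscle heavy chain, 419 bp), Rhoa (the GTPase upstream of Rock1, 316 bp), Ppp1r12a (a subunit of myosin phosphatase, 310 bp) and Myl6 (an essential light chain, 247 bp). Myl9, the light chain among the 10 genes, had none. Actin assembly and turnover had a site in 8 of 25 genes (32.0%), the widest at Coro1c (a coronin, 586 bp), Pfn1 (profilin, which binds actin monomers, 585 bp) and Dstn (destrin, which severs filaments, 533 bp). These sites were narrower than those of Actg1 and Acta2.

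Among 19 crosslinkers and adhesion genes 2 had a site (10.5%), Rdx (radixin, which ties actin to the membrane, 923 bp) and Fscn1 (fascin, a bundling protein, 490 bp), the Rdx site being wider than every site of the 10 genes other than the first of Actb. Of 8 other intermediate filament genes 1 had a site, Lmnb1 (lamin B1, 269 bp). Of 10 tubulin genes 2 had one, Tuba1b and Tubb5. None of the 4 other actin genes, which are muscle or minor forms, had a site within 1 kb, nor any of the 5 genes for SRF and its coactivators, although 1 of these had a site in its body. The lists hold between 4 and 25 genes, and their shares were not tested against each other or against the background.

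**Figure D4:**
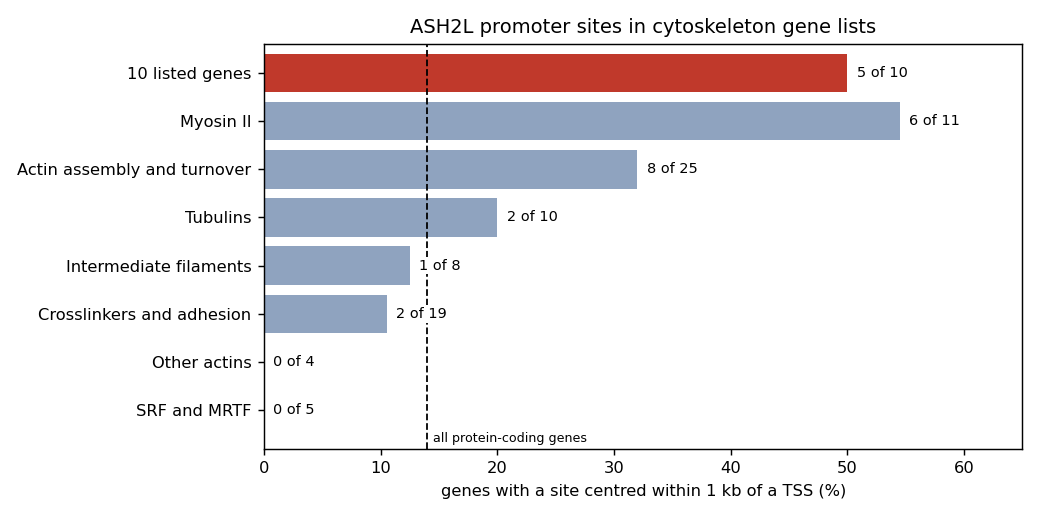
Bars give, for each gene list, the percent of genes with an ASH2L site centred within 1 kb of a TSS, with the counts beside them. The dashed line marks the 14.0% of all protein-coding genes, and the bars of the 10 genes (5 of 10), of myosin II (6 of 11) and of actin assembly and turnover (8 of 25) reach beyond it, as does that of the tubulins (2 of 10).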

How the data were processed

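Reads had been trimmed by the authors (Trim Galore) and mapped with BWA to mm10. Replicates were then merged in Picard, and MACS was used for narrow peak calling. Precipitation was with HA antibodies, and the labels name the antibody as Ash2l. The deposited list gives positions only, in 3 columns (chromosome, start, end), with no count or score and no column per sample. Its 6444 sites were used in the build of the authors, 6428 of them on assembled chromosomes. Starts were taken as counted from 0 and are printed counted from 1.

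Genes and TSSs were those of GENCODE mouse release 21, and the sequence was GRCm38.p6, the same build. A site was placed by its centre. The gene start is the 5′ end of the gene model, and offsets are positive downstream. CpG islands were computed from the sequence, and motifs and 75-base copies were matched exactly. Shares of all protein-coding genes serve as background. No test was run, since the members and gene lists were chosen with earlier results of these data known. Genes named from the further lists were at most 6 per list, widest site first, except those named by the offset of their site. Other windows, TSS sets, overlap rules, minimum widths and island definitions were tried as alternatives. The functions were tested on simulated positions. Python 3.11.15, NumPy 2.4.6 and matplotlib 3.10.9 were used.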

Additional observations from a re-analysis of the deposited data

How the results depend on the processing

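The same 5 genes had a site within 1 kb and 3 kb of a TSS and in the gene body under every alternative tried, each varied on its own. With the window of 500 bp, Actb, Acta2, Vim and Tpm1 were kept only through annotated starts inside the gene. Of 28 alternatives to the 6 counts, 27 stayed within 1.5 times the count reported. The exception was the number of protein-coding genes with a site within 1 kb, which was 1693 (7.72%) with sites of at least 300 bp only, in place of 3078, and between 12.3 and 14.2% under the others. Among the 82 further cytoskeleton genes, the 19 with a site became 13 with a window of 500 bp, beside 12.5% of all protein-coding genes. The count was also 13 with sites of at least 300 bp, beside 7.72%. One set of TSSs, the GENCODE basic set, was added after the data were seen. With the start of each gene as the only TSS, the nearest site moved from 16.5 to 833.5 bp in Actb, from 361.5 to 957.5 bp in Vim and from 26693.5 to 30789.5 bp in Tpm2. Under the same setting the sign turned from upstream to downstream in Actg1 (-110.5 to 340.5 bp), Acta2 (-449.5 to 910.5 bp) and Tpm1 (-6.5 to 970 bp), because internal starts were then left out. No paired analysis was possible because the list has no values per sample, and leaving out replicates could not be done for the same reason. Without a score no stricter threshold on the sites was possible, and the width of at least 300 bp stood in for it. Depth limits which sites were called and is not shown by the list, so that a gene without a site may have had weak binding. Mappability near the copies in Actg1 and Actb was not modelled.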
